A study of Mus musculus with 4 samples.

Results

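The mRNA of 10 genes that mark the classes of inhibitory interneurons in the cerebral cortex was followed in mouse brain after photothrombotic stroke, with and without angiotensin II. The genes, chosen by name, were Pvalb, Sst, Vip, Gad1, Gad2, Npy, Cck, Lamp5, Reln and Calb2, and all 10 were found once each among the 33981 genes listed. RNA was extracted from coronal tissue around the prefrontal cortex, and 4 groups of 6 libraries were sequenced. All animals were male C57BL/6J mice aged 3 to 5 months that carried an infusion for 28 days, had surgery on day 7 and were culled on day 28. Mice called hypertensive (HT) received angiotensin II (0.28 mg/kg/day) and those called normotensive (NT) received saline vehicle. Stroke was made by illuminating the prefrontal cortex at 1.5 mm anterior to bregma, as the sample labels give it, after a photosensitive dye, and sham mice had the surgery without illumination. The sham groups are called NT + Sham and HT + Sham below, and the stroke groups NT + Stroke and HT + Stroke. GEO lists 1 sample for each group and the tables give 6 numbered libraries, and no label states that each library is a separate mouse, so the tests below measure the spread between libraries.

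Cortical interneurons release GABA, which dampens the firing of their targets, and they fall into classes that are told apart by the proteins and peptides they make. GAD67 and GAD65, the products of Gad1 and Gad2, make GABA from glutamate and are found in every class. Parvalbumin (Pvalb), a calcium-binding protein, marks fast-spiking cells that inhibit the soma and initial segment, and somatostatin (Sst), a peptide, marks cells that inhibit distal dendrites. Vasoactive intestinal peptide (Vip) marks cells that mostly inhibit other interneurons, and many of these also make calretinin (Calb2) or cholecystokinin (Cck). Lamp5, a membrane protein, neuropeptide Y (Npy) and reelin (Reln), a secreted matrix protein, occur in neurogliaform cells of the upper layers, although Npy and Reln are also made by somatostatin cells. None of the 10 is restricted to cortical interneurons: Cck and Lamp5 are also made by excitatory neurons, the GAD genes by striatal projection neurons, and Calb2, Gad1 and Reln are abundant in the olfactory bulb.

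The promoters of the peptide genes Sst, Vip and Cck are shown because the mRNA of all 3 was lower in NT + Stroke than in NT + Sham and because cyclic AMP response elements are textbook features of such genes. Each is the stretch of 150 bases that ends just before the RefSeq start of the gene on GRCm38.p6, read 5′ to 3′ on the strand of the gene. Capitals mark the cyclic AMP response element TGACGTCA or its shorter form TGACG, on either strand (CGTCA is the reverse complement). The Sst stretch is chr16:23890845-23890994 on the minus strand, the Vip stretch is chr10:5639068-5639217 on the plus strand and the Cck stretch is chr9:121495695-121495844 on the minus strand. The gene model in the deposited tables begins further upstream for Sst, inside the stretch shown.
Sst: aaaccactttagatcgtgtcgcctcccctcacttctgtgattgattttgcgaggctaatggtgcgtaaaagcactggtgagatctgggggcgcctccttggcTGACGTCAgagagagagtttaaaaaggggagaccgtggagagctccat
Vip: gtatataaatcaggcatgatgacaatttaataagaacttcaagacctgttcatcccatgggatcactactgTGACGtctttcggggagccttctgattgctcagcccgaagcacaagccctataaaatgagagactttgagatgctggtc
Cck: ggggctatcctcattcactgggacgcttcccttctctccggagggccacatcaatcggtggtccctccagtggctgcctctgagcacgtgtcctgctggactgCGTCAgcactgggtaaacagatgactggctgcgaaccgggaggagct

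In Sst the whole element began 48 bases before the start. The shorter form began 79 bases before the start in Vip and 47 bases before it in Cck. Promoter entries of 300 bases, from 250 before to 50 after the start, were found for 9 of the 10 genes, and the shorter form was in 4 of the 9 (Sst, Vip, Cck and Gad2). Over all 32851 promoter entries of that length, 20.8% held the shorter form and 1.79% the whole element, which itself contains the shorter form. Lamp5, whose mRNA was also lower in NT + Stroke, had no match in either of its entries. A match describes the letters only.

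Counts per gene summed to between 15922919 and 24865998 per library (median 18497215), and each of the 10 genes had at least 438 counts in every library. Levels below are CPM, a gene's count as a share of the library's TMM-scaled total (TMM sets libraries on a common scale), unless FPKM is named. FPKM is the authors' value per kilobase of gene, and it was used to compare one gene with another. As a check of the tissue, 18 cortical excitatory genes were all detected and summed to between 5904 and 10102 CPM per library. Genes of striatal projection neurons and of the olfactory bulb, regions that lie near the section, were present in every library but varied widely. The 13 striatal genes summed to between 396.9 and 2888 CPM, and 13 olfactory bulb genes (Olfm1, which the cortex also makes, left out) to between 58.9 and 678 CPM. The lowest olfactory bulb sums were in libraries 1 and 2 of HT + Stroke and the highest in library 6 of HT + Sham and libraries 1, 4 and 5 of NT + Stroke. Phagocyte genes of library 6 of HT + Sham summed to 1022 CPM against 389.7 to 526 in the rest of that group, and libraries 1 and 6 of HT + Stroke gave 604 and 579.7 against 1217 to 2920 in the rest, so these 3 libraries stood apart from their groups.

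Per length, somatostatin and cholecystokinin were the most abundant of the 10 mRNAs and reelin the least. In NT + Sham, Sst was at 499.7 ± 84.6 FPKM (SD, n = 6) and Cck at 490.0 ± 43.2, and these neighbours overlapped. Npy followed at 197 ± 19.6 FPKM, below Cck in every pairing of libraries. Pvalb (69.1 ± 15.6) and Lamp5 (69.0 ± 7.56) overlapped, as did Gad1 (45.2 ± 5.43) and Calb2 (42.9 ± 10.7). Gad2 stood at 21.1 ± 2.36, Vip at 11.7 ± 0.683 and Reln at 1.85 ± 0.134 FPKM, each without overlap with the one above. Gad2, Vip and Reln kept ranks 8, 9 and 10 in all 4 groups. Calb2 went from rank 7 in NT + Sham to rank 4 in NT + Stroke, at 97.1 ± 49.1 FPKM, and Pvalb from rank 4 in NT + Sham to rank 7 in HT + Sham, at 55.8 ± 10.7. The FPKM of Reln is set against a gene length of 23738 bases and that of Npy against 566, since FPKM divides by that length. Gad1 overlaps an antisense gene, Gad1os, which had 107 counts in all libraries together. Reln overlaps 7 annotated genes, some of them on the opposite strand, and Gad2 overlaps 2 miRNA genes on its own strand. Without a stated strand setting, reads of genes that overlap on opposite strands cannot be told apart.

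**Figure D1:**
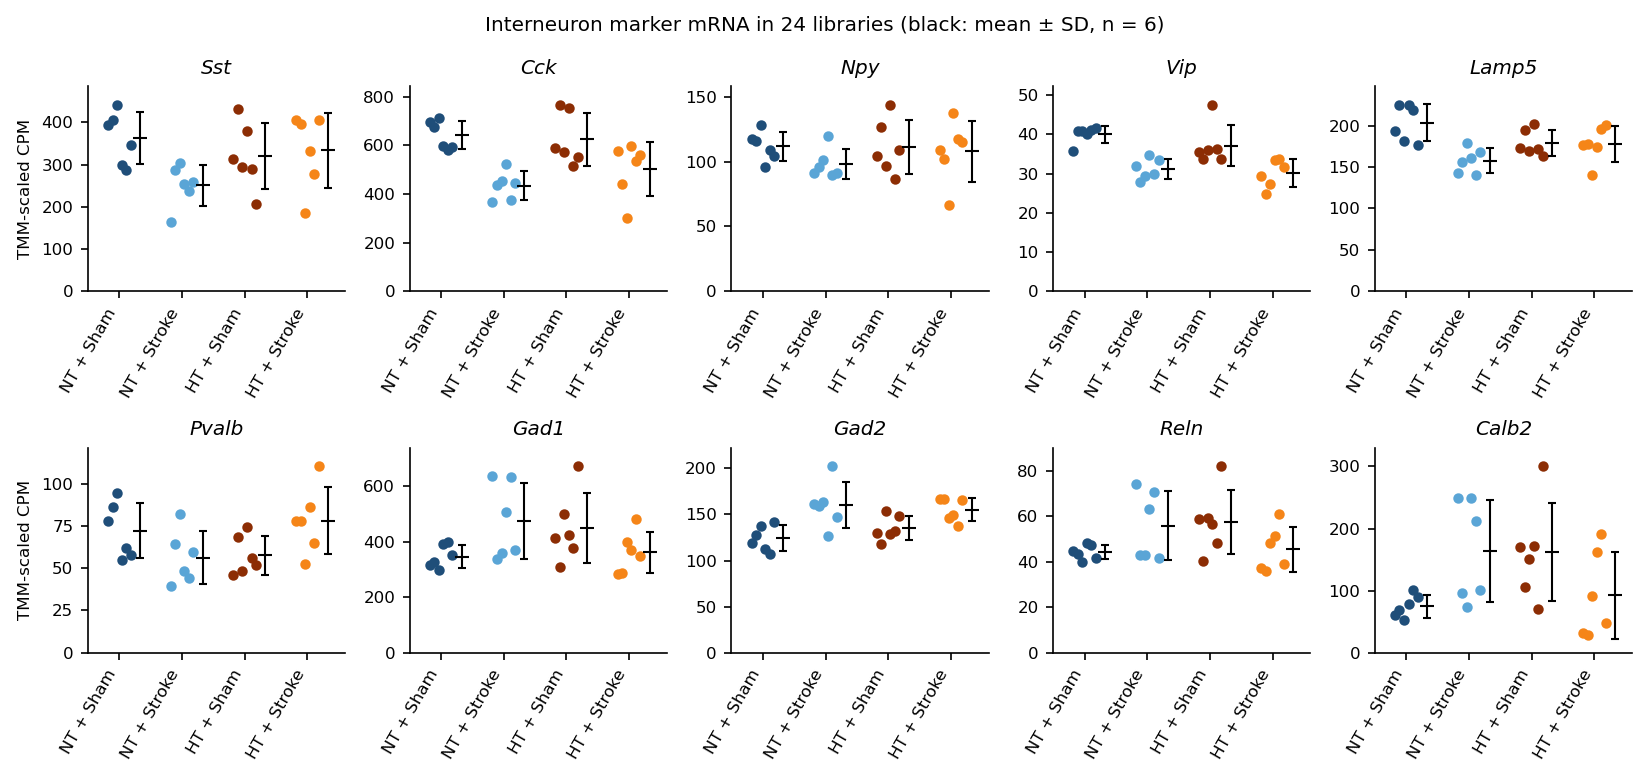
TMM-scaled CPM of each of the 10 genes in each of the 24 libraries, with the 4 groups along the horizontal axis and each vertical axis starting at 0. Points are libraries in order of their number and the black bars give the mean ± SD (n = 6). All 6 NT + Stroke libraries lie below all 6 NT + Sham libraries for Vip and Cck, and the Calb2, Reln and Gad1 points spread widely in every group but NT + Sham.

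Stroke in NT mice was the comparison with the most changes. Cck, Sst, Lamp5 and Vip fell, Gad2 and Calb2 rose, and Gad1, Reln, Pvalb and Npy did not pass the test. Thus 6 of 10 genes were called, 4 lower and 2 higher, by the quasi-likelihood test of edgeR at a Benjamini-Hochberg adjusted p of 0.05, computed over 16835 genes. Of all genes tested, 11.5% were called lower and 14.4% higher in this comparison. The median log2 fold change of the 10 was -0.27, against -0.01 over all genes tested. In whole brain sections such as these, fewer cells of a class and less RNA in each cell cannot be told apart.

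Cck, which encodes a peptide of both interneurons and pyramidal cells, ran from 582 to 713 CPM in NT + Sham (median 636) and from 368 to 525 in NT + Stroke (median 443). The groups did not overlap. The log2 fold change was -0.56 (SE 0.08, edgeR adjusted p = 7.55e-05), or 1.47-fold lower. Vip, the peptide of cells that inhibit other interneurons, ran from 35.8 to 41.7 CPM in NT + Sham (median 40.9) and from 28.0 to 34.6 in NT + Stroke (median 31.0). Here too every stroke library was below every sham library. The log2 fold change was -0.35 (SE 0.06, edgeR adjusted p = 0.000529).

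Lamp5, a membrane protein of neurogliaform cells, ran from 176 to 225 CPM in NT + Sham (median 206) and from 140.2 to 179 in NT + Stroke (median 158). The groups overlapped by a single stroke library, library 3, which lay above the lowest sham library. Its log2 fold change was -0.36 (SE 0.08, edgeR adjusted p = 0.00194). Sst, the peptide of dendrite-targeting cells, ran from 287 to 442 CPM in NT + Sham (median 369) and from 164 to 305 in NT + Stroke (median 256). All 6 stroke libraries were below the sham median, but the ranges overlapped. The log2 fold change was -0.53 (SE 0.14, edgeR adjusted p = 0.0151).

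Gad2, whose product GAD65 makes GABA at nerve terminals, ran from 107 to 141 CPM in NT + Sham (median 124) and from 126 to 202 in NT + Stroke (median 160). All 6 stroke libraries were above the sham median, with overlap of the ranges. The log2 fold change was 0.37 (SE 0.10, edgeR adjusted p = 0.00899). Calb2, the gene of the calcium-binding protein calretinin, ran from 52.5 to 101 CPM in NT + Sham (median 73.5) and from 74.4 to 250.0 in NT + Stroke (median 156). Libraries 1, 4 and 5 of NT + Stroke were at 250.0, 249 and 212 CPM, and the other 3 were within the sham range. The log2 fold change was 1.13 (SE 0.34, edgeR adjusted p = 0.0349), and the call was lost (adjusted p from 0.05 to 0.075) without any one of libraries 1, 2, 3, 4 or 6 of NT + Sham or libraries 1, 4 or 5 of NT + Stroke.

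The other 4 genes did not pass the test in NT mice. Gad1, the gene of the main GABA-making enzyme of the soma, was at 347 ± 41.0 CPM in NT + Sham and 474 ± 138 in NT + Stroke (n = 6 each; log2 fold change 0.46, SE 0.17, edgeR adjusted p = 0.0688). It passed without library 2, 3 or 6 of NT + Stroke (adjusted p = 0.0232, 0.0385 and 0.0439), the libraries in which it was lower. Reln, the matrix protein gene, was at 44.2 ± 3.22 and 55.9 ± 15.1 CPM (log2 fold change 0.34, SE 0.15, edgeR adjusted p = 0.111), and it passed without library 2 or 6 of NT + Stroke (adjusted p = 0.0498 and 0.0414). Pvalb, the fast-spiking marker, was at 72.3 ± 16.5 and 56.3 ± 15.7 CPM (log2 fold change -0.35, SE 0.20, edgeR adjusted p = 0.225). Npy, a peptide of neurogliaform and somatostatin cells, was at 112 ± 11.3 and 98.3 ± 11.5 CPM (log2 fold change -0.18, SE 0.08, edgeR adjusted p = 0.103), and it passed without library 4 of NT + Sham or library 4 of NT + Stroke (adjusted p = 0.0499 and 0.0226).

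In HT mice, the comparison of HT + Stroke with HT + Sham called none of the 10 genes, while 0.645% of the 16741 genes tested were called. That background was unstable: 108 genes were called with all libraries, 9 without library 3 of HT + Sham or library 2 of HT + Stroke, 532 without library 1 of HT + Stroke, 1437 without the 3 libraries that stood apart, and 907 by DESeq2. At an unadjusted p under 0.05 the count by edgeR was 3 (Pvalb, Vip and Gad2), against 17% of all genes, and DESeq2 also called 0 of the 10. Vip ran from 33.7 to 47.6 CPM in HT + Sham (median 35.8) and from 24.8 to 33.8 in HT + Stroke (median 30.5). All 6 stroke libraries lay below the sham median and only the highest was above the lowest sham library, with a log2 fold change of -0.29 (SE 0.10, edgeR adjusted p = 0.139). In a fit of all 4 groups together, which shares the estimate of spread, Vip passed (log2 fold change -0.30, adjusted p = 0.0311), as did 6.39% of all genes. Gad2 ran from 118 to 154 CPM in HT + Sham (median 131) and from 138 to 167 in HT + Stroke (median 157), with a log2 fold change of 0.21 (SE 0.08, edgeR adjusted p = 0.19). Cck, Sst and Lamp5, which were called in NT mice, had log2 fold changes of -0.30 (SE 0.15), 0.08 (SE 0.20) and 0.00044 (SE 0.09) in HT mice. Their edgeR adjusted p-values were 0.322, 0.895 and 0.999. Pvalb was at 57.6 ± 11.4 and 78.3 ± 19.8 CPM, a log2 fold change of 0.45 (SE 0.16, edgeR adjusted p = 0.179), the opposite sign to that in NT mice, and 0.26 without the 3 libraries that stood apart. Calb2 ran from 71.1 to 300.5 CPM in HT + Sham and from 29.1 to 192 in HT + Stroke, a span that left the log2 fold change of -0.80 with an SE of 0.54. It ran from -1.15 to -0.53 as each library was left out, and was -0.18 without the 3 libraries that stood apart.

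The stroke effect in HT mice minus that in NT mice was tested as the interaction. None of the 10 genes and 0% of the 17608 genes tested passed, by edgeR. At an unadjusted p under 0.05 edgeR gave 6 of the 10 genes and 10.4% of all genes. After adjustment DESeq2 called 0 of the 10 and 22 genes in all. The differences on the log2 scale were 0.80 for Pvalb (SE 0.27, edgeR adjusted p = 0.322), 0.36 for Lamp5 (SE 0.12, adjusted p = 0.322) and 0.60 for Sst (SE 0.26, adjusted p = 0.454). They were -1.93 for Calb2 (SE 0.65, adjusted p = 0.322), -0.77 for Gad1 (SE 0.26, adjusted p = 0.322) and -0.68 for Reln (SE 0.24, adjusted p = 0.34). For Vip the difference was 0.06 (SE 0.12) and for Gad2 -0.16 (SE 0.13). The olfactory bulb list moved with these values: its median difference was -1.99 on the log2 scale over 12 genes tested, none of which passed. With the olfactory bulb and striatal scores of each library as covariates, the difference was -0.12 for Calb2 (SE 0.16), -0.06 for Gad1 (SE 0.17) and -0.02 for Reln (SE 0.14). Without the 3 libraries that stood apart and with no covariates, it was -1.30, -0.53 and -0.44.

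Taking stroke over both pressures, with angiotensin II as an additive term, 4 of the 10 genes passed. Vip fell by 0.33 on the log2 scale (SE 0.06, edgeR adjusted p = 0.000141), Cck by 0.44 (SE 0.09, adjusted p = 0.00105) and Lamp5 by 0.19 (SE 0.07, adjusted p = 0.0426), while Gad2 rose by 0.28 (SE 0.07, adjusted p = 0.00199). The Lamp5 value averages a log2 fold change of -0.36 in NT mice (SE 0.08) with 0.00044 in HT mice (SE 0.09). Of the 17608 genes tested, 11.4% were called lower and 13.8% higher. Vip, Cck and Gad2 kept their calls whichever of the 24 libraries was left out. Lamp5 lost its call (adjusted p from 0.0576 to 0.0819) without any one of 12 libraries, namely 1, 2, 4 and 5 of NT + Sham, 1, 2, 4, 5 and 6 of NT + Stroke, 2 and 4 of HT + Sham and 3 of HT + Stroke. Without the 3 libraries whose phagocyte genes stood apart, 5 genes passed (31.5% of all genes did), Sst being added with a log2 fold change of -0.39 (adjusted p = 0.0234), and stroke in HT mice still called 0.

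**Figure D2:**
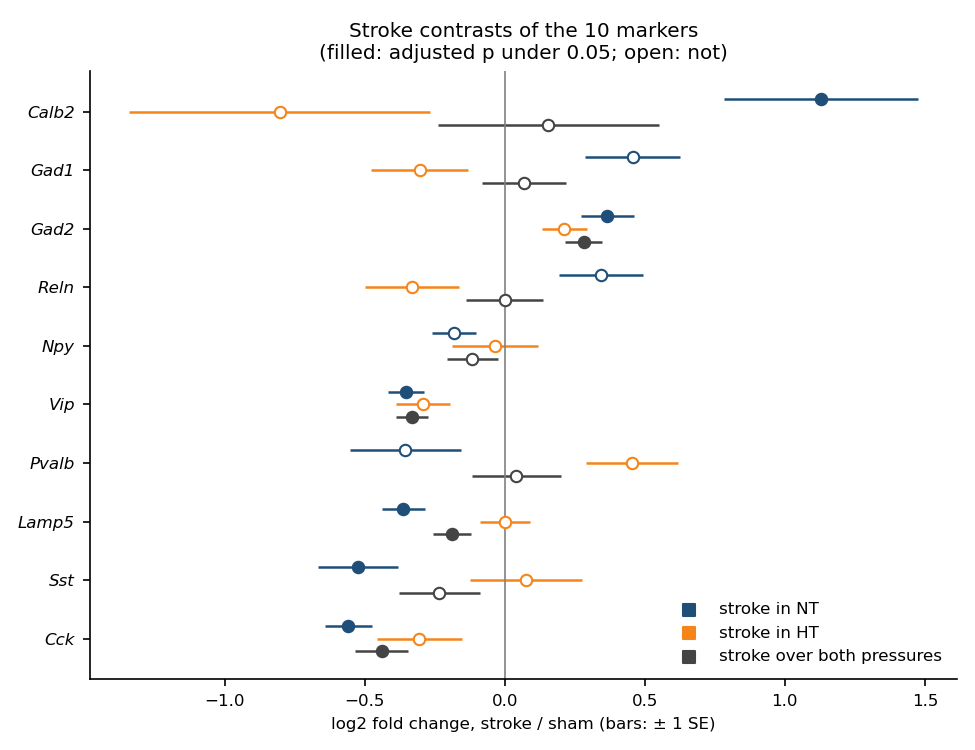
Log2 fold change of stroke against sham for the 10 genes in NT mice, in HT mice and over both pressures. Bars are ± 1 SE, derived from the F statistic of edgeR. Filled points passed an adjusted p of 0.05. Vip, Cck and Npy lie below 0 and Gad2 above 0 in all 3 comparisons. Calb2, Gad1, Reln, Pvalb and Sst change sign between NT and HT mice, and Lamp5 lies at about 0 in HT mice.

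Angiotensin II itself called none of the 10 genes, in sham or in stroke mice, and 0% of all genes tested in either comparison. In sham mice 4 of the 10, and 8.03% of all genes, were under an unadjusted p of 0.05 by edgeR, and DESeq2 called 0 after adjustment. Calb2 had the largest log2 fold change, 1.11 (SE 0.31, edgeR adjusted p = 0.426), from 75.1 ± 18.3 CPM in NT + Sham to 162 ± 78.5 in HT + Sham. Reln followed at 0.38 (SE 0.12, adjusted p = 0.435) and Gad1 at 0.38 (SE 0.15, adjusted p = 0.522), and the fourth was Lamp5 at -0.18 (SE 0.08, adjusted p = 0.578). Without library 6 of HT + Sham the values were 0.84 for Calb2, 0.25 for Reln and 0.22 for Gad1. The summed olfactory bulb genes had a median of 162 CPM in NT + Sham and 347 in HT + Sham, and with the regional covariates the values were 0.0065 for Calb2, 0.038 for Reln and -0.061 for Gad1. In stroke mice 1 gene, Pvalb, and 7.23% of all genes were under an unadjusted p of 0.05 by edgeR (Pvalb log2 fold change 0.47, SE 0.20, adjusted p = 0.654) and DESeq2 called 0. Comparisons that share a group (NT + Sham, for example) are not independent of each other.

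Within groups, the 10 genes fell into sets that varied together from library to library. Values here are log2 CPM less the mean of the group, over 24 libraries, and are given as a description. Calb2, Reln and Gad1 rose and fell together, with Pearson's r of 0.876 for Calb2 with Reln, 0.956 for Reln with Gad1 and 0.824 for Calb2 with Gad1. Sst and Pvalb (r = 0.792), and Cck and Npy (r = 0.921), formed another set, in which Cck and Sst had r = 0.760. Sst and Gad1 ran opposite to each other (r = -0.764). The pair of GABA-making enzymes did not vary together (r = 0.111 for Gad1 with Gad2), and Vip had no r above 0.494 with any other member. All values share the scaling of their library, which alone can tie genes together.

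**Figure D3:**
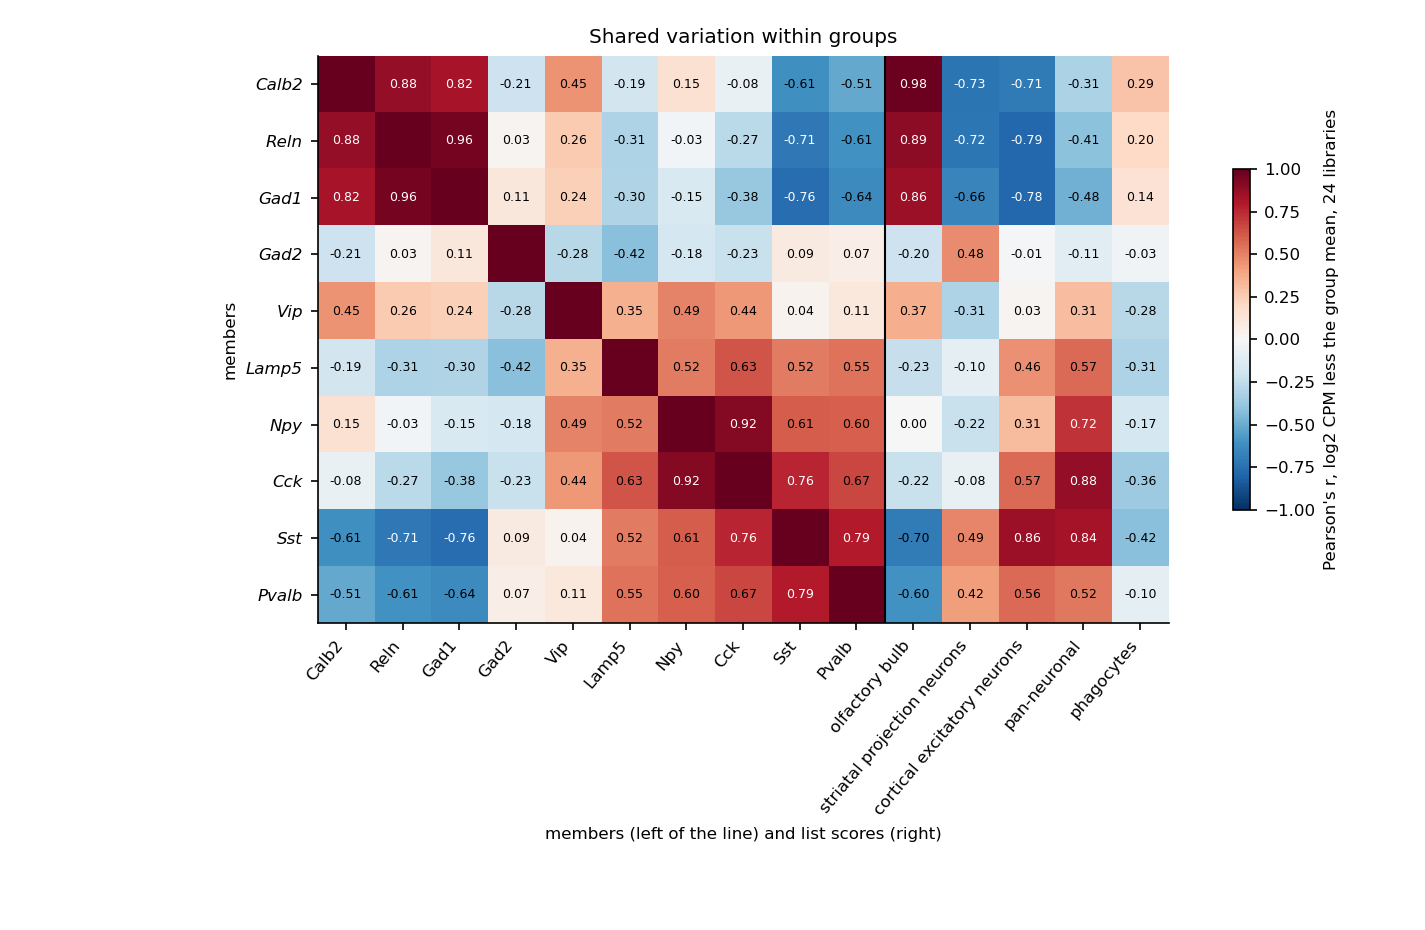
Pearson's r between members (rows) and between members and the scores of 5 gene lists (columns right of the line), from log2 CPM less the group mean over 24 libraries. Red is positive and blue negative, and the number is r. Calb2, Reln and Gad1 form a red block that extends to the olfactory bulb score and is blue against Sst and Pvalb.

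Next, each gene was set against the mean log2 CPM of 5 lists, again within groups, in 50 relations with permutation p-values (100000 permutations of libraries within their groups) adjusted over the 50. These p-values test only against no relation at all, which shared library scaling alone can undo. The share of all genes that follow each list was not computed. Members and lists were also chosen with earlier results of these data known. Calb2 followed the olfactory bulb genes closely, with Pearson's r = 0.978 and Spearman's rho = 0.963 (permutation p = 1e-05 for each, the smallest that could be reached, adjusted p = 0.0001 and 0.000125). Without the 2 libraries farthest from the median, libraries 1 and 2 of HT + Stroke, r was 0.973, and it was 0.895 or more in each of the 4 groups alone. Reln (r = 0.894, rho = 0.907, without those 2 libraries r = 0.902) and Gad1 (r = 0.857, rho = 0.859, without them r = 0.851) followed the same genes with the same permutation p-values. Sst ran against them (r = -0.700, permutation p = 0.0006, adjusted p = 0.00273; rho = -0.752, permutation p = 0.00021, adjusted p = 0.000875; without the 2 libraries r = -0.667).

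Sst followed the cortical excitatory genes (r = 0.857, permutation p = 1e-05, adjusted p = 0.0001, and rho = 0.783, permutation p = 8e-05, adjusted p = 0.0004), with r = 0.779 without library 6 of HT + Sham and library 3 of HT + Stroke. It followed the pan-neuronal genes nearly as closely (r = 0.836, permutation p = 4e-05, adjusted p = 0.000286). Pvalb followed both lists (r = 0.564 and 0.524, permutation adjusted p = 0.0156 and 0.0401) and ran against the olfactory bulb genes (r = -0.602, adjusted p = 0.0156). Calb2, Reln and Gad1 ran against the striatal (r = -0.729, -0.722 and -0.663) and cortical excitatory genes (r = -0.709, -0.787 and -0.784, permutation adjusted p = 0.00731 or less for all). Cck followed the pan-neuronal genes (r = 0.880, permutation p = 3e-05, adjusted p = 0.00025; rho = 0.897, permutation p = 1e-05, adjusted p = 0.000125), with r = 0.809 without libraries 1 and 3 of HT + Stroke. Npy followed them too (r = 0.720, permutation p = 0.0049, adjusted p = 0.0156; rho = 0.741, permutation p = 0.00032, adjusted p = 0.00123; r = 0.613 without those 2). Gad2 had its highest r with the striatal genes, but it did not pass (r = 0.475, permutation p = 0.0387, adjusted p = 0.084; rho = 0.486, permutation p = 0.0304, adjusted p = 0.0761; r = 0.531 without library 6 of HT + Sham and library 4 of NT + Stroke). For Vip none of the 5 lists passed, the highest r being 0.365 with the olfactory bulb genes (permutation p = 0.143, adjusted p = 0.264; rho = 0.330, permutation p = 0.174, adjusted p = 0.321; r = 0.260 without libraries 1 and 2 of HT + Stroke).

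**Figure D4:**
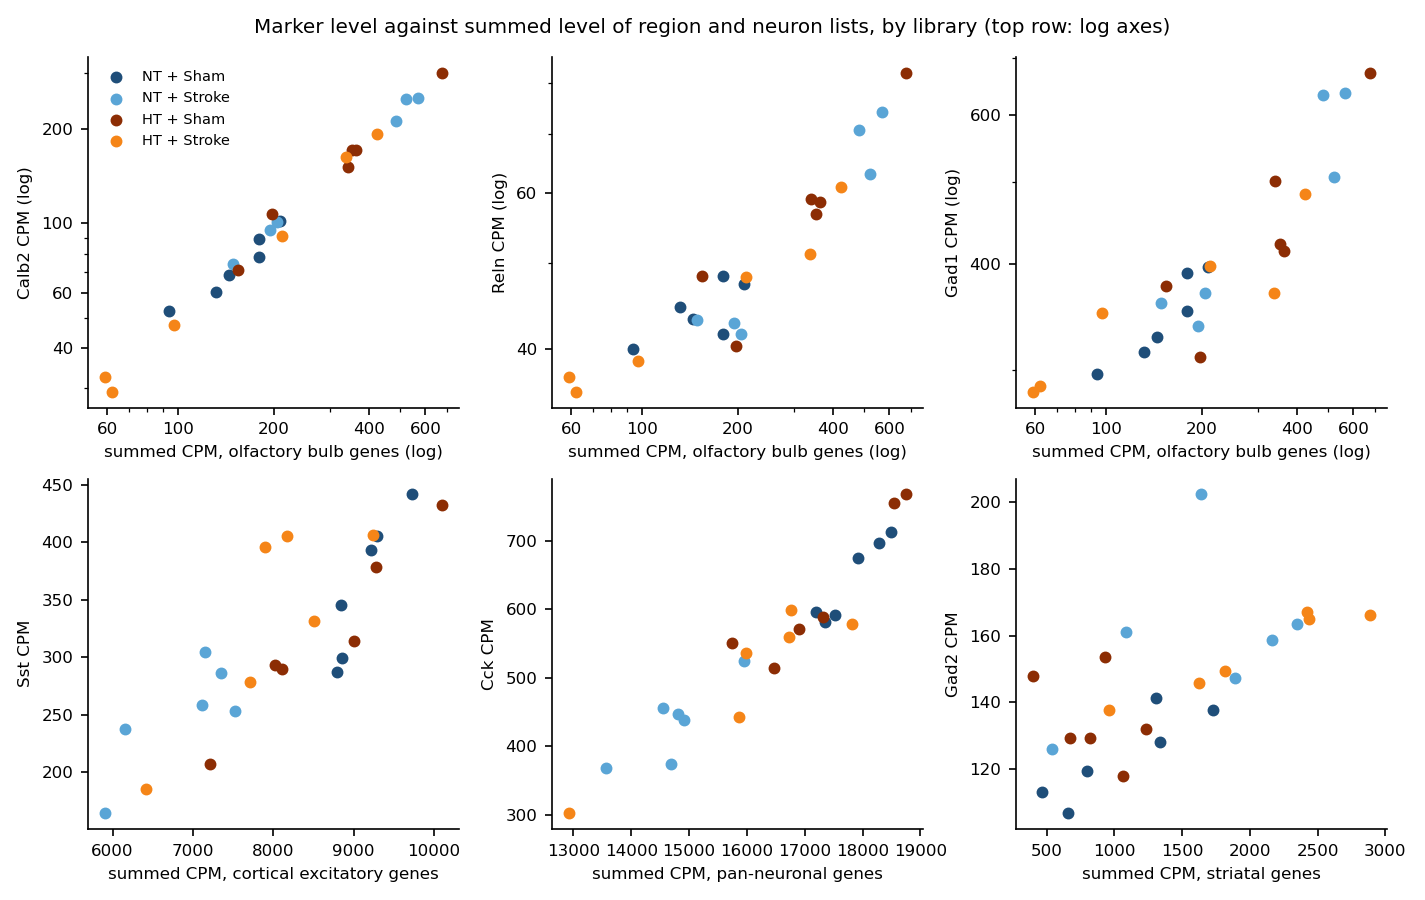
CPM of 6 genes in each library against the summed CPM of a gene list, coloured by group, with log axes in the top row and linear axes that do not start at 0 in the bottom row. Calb2, Reln and Gad1 climb with the 13 olfactory bulb genes across all 4 groups, Sst with 18 cortical excitatory genes and Cck with 20 pan-neuronal genes, while Gad2 climbs less tightly with 13 striatal genes.

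The genes most like each member, by r within groups, were looked for among 15492 genes whose mean reached 1 CPM. For Calb2 they were Th (r = 0.992), the enzyme that begins dopamine synthesis, Doc2g (0.991) and Ppm1j (0.984), and Th and Doc2g are in the olfactory bulb list. For Gad1 they were Synpr (0.979), a synaptic vesicle protein gene, Dcx (0.964), a marker of migrating neuroblasts, and Eml5 (0.964), and for Reln they were Gad1 (0.956), Nrip3 (0.953) and Dcx (0.951). Sst was most like Vti1b (0.965), Ctxn1 (0.945) and Nxph3 (0.945), and Cck was most like Nme1 (0.966), Pfdn2 (0.952) and Gfra4 (0.943). Npy was most like Psmd8 (0.947), Cisd1 (0.946) and Nme1 (0.945), and Pvalb most like Trappc13 (0.893), Pantr1 (0.882) and Nenf (0.878). The remaining genes had no match as close: Gad2 reached 0.791 (Gpr101, with Zcchc12 at 0.775 and Chn2 at 0.766), Lamp5 0.788 (Tango2, with Cpne9 at 0.781 and Gm2011 at 0.780) and Vip 0.750 (Gm20735, with Prim1 at 0.735 and Cops5 at 0.716).

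Because the regional lists moved with some of the members, the stroke comparisons were also fitted with the olfactory bulb and striatal scores of each library as covariates. In NT mice none of the 10 genes then passed by edgeR (2 of them, Vip and Gad1, at an unadjusted p under 0.05, as did 13.3% of all genes). Calls over all genes also fell with these covariates, from 4365 to 522 of the 16835 tested, or 3.1%, so the count of the 10 is read against that. Calb2 went from 1.13 to -0.09 on the log2 scale (SE 0.15), Gad1 from 0.46 to -0.27 (SE 0.12), Reln from 0.34 to -0.24 (SE 0.13) and Gad2 from 0.37 to -0.10 (SE 0.12). Cck went from -0.56 to -0.15 (SE 0.13), Lamp5 from -0.36 to -0.05 (SE 0.14) and Sst from -0.53 to -0.11 (SE 0.18). Vip stayed at -0.37, with an SE of 0.14 and an adjusted p of 0.186. Over both pressures, where 5.34% of all genes passed with these covariates, Vip was the one gene of the 10 that did (log2 fold change -0.29, SE 0.08, adjusted p = 0.0383), and Cck was at -0.27 (SE 0.12, adjusted p = 0.201) and Gad2 at 0.11 (SE 0.08, adjusted p = 0.5). Some covariate genes may themselves change with stroke, which this fit cannot tell apart from a difference in the tissue sampled.

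Scaling each library to 20 pan-neuronal genes, which fell by a median of 0.30 on the log2 scale in NT + Stroke, moved the median of all genes in that comparison to 0.26 and the calls over all genes from 2426 higher and 1939 lower to 8220 higher and 199 lower (48.8% and 1.18%). Relative to the pan-neuronal genes, Cck was the one member called lower by edgeR (log2 fold change -0.29, adjusted p = 0.0011). Calb2 (1.39), Gad1 (0.73), Gad2 (0.64) and Reln (0.61) were called higher (adjusted p = 0.00893, 0.0111, 0.000115 and 0.00856). Vip was at -0.09, Lamp5 at -0.10 and Pvalb at -0.08 on this scale, none of which passed, and Sst was at -0.26 (adjusted p = 0.0925). Over both pressures, Cck (-0.25, adjusted p = 0.00183) and Gad2 (0.48, adjusted p = 7.36e-05) passed, with 39.9% of all genes higher and 1.03% lower. Vip, Lamp5 and Sst thus fell in NT + Stroke under TMM scaling, while relative to the pan-neuronal genes their differences did not pass.

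**Figure D5:**
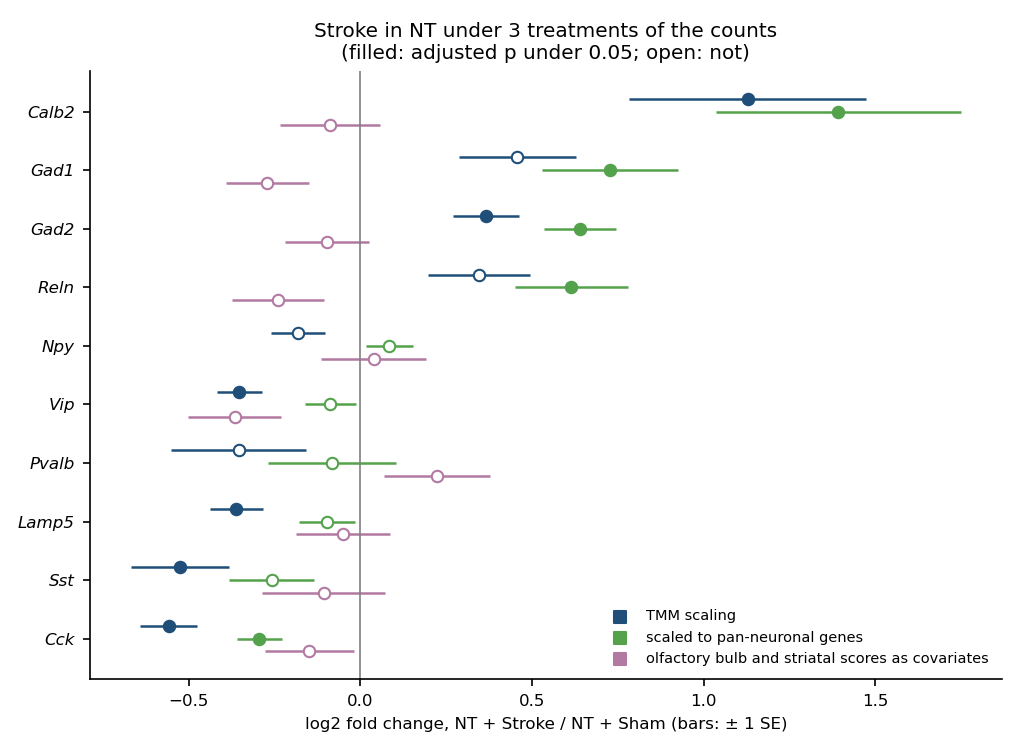
Log2 fold change of NT + Stroke against NT + Sham under TMM scaling, scaling to pan-neuronal genes and TMM scaling with the olfactory bulb and striatal scores as covariates. Bars are ± 1 SE, derived from the F statistic of edgeR. Filled points passed an adjusted p of 0.05. Calb2, Gad1, Gad2 and Reln move from the right of 0 to its left with the covariates, and Vip keeps its place with them but lies near 0 when scaled to pan-neuronal genes.

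Other genes of the inhibitory system, taken from lists of known roles, also moved in both directions after stroke in NT mice. Of 10 further genes listed as common to interneuron classes, 7 were called higher and 1 lower, where 14.4% and 11.5% of all genes were. Their median log2 fold change was 0.49, whereas the median in HT mice was -0.20. Slc32a1, the vesicular GABA transporter, rose in the stroke comparison over both pressures (log2 fold change 0.35, SE 0.07, edgeR adjusted p = 0.000273), from 142 ± 22.1 CPM in NT + Sham to 193 ± 15.1 in NT + Stroke and from 162 ± 17.5 in HT + Sham to 193 ± 17.3 in HT + Stroke. Dlx6, a transcription factor gene of the ventral forebrain, rose by 0.42 and Maf by 0.26 (adjusted p = 0.000468 and 0.0108), and Erbb4, a neuregulin receptor gene of interneurons, fell by 0.24 (adjusted p = 0.00625). Whether the rise of Maf came from interneurons or from other cells was not tested. Slc32a1 and the Dlx genes are also made by striatal and olfactory bulb neurons, and the summed striatal genes had a median of 1051 CPM in NT + Sham and 1764 in NT + Stroke.

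Of 16 genes of the lineage of Pvalb and Sst cells (medial ganglionic eminence), 1 was called higher and 4 lower in NT mice, with the same counts over both pressures. Over both pressures Cort, which encodes the somatostatin-like peptide cortistatin, fell by 0.61 (SE 0.13, edgeR adjusted p = 0.000709), Crhbp, a binding protein of corticotropin-releasing hormone, fell by 0.33 (adjusted p = 0.000323), and Kcnc2, a potassium channel gene of fast-spiking cells, fell by 0.32 (adjusted p = 0.000811). The 14 phagocyte genes were all called higher over both pressures. Of 14 genes of the lineage of Vip and Lamp5 cells (caudal ganglionic eminence), 3 were called higher and 2 lower in NT mice, and 2 in each direction over both pressures. Shares over all genes were 14.4% higher and 11.5% lower in NT mice and 13.8% and 11.4% over both pressures, against which the counts of both lineages are to be read. Cnr1, the cannabinoid receptor of cholecystokinin interneurons, fell by 0.37 (adjusted p = 0.000653) and Npas1 by 0.40 (adjusted p = 0.0142). Igf1, which phagocytes also make, rose by 1.03 (adjusted p = 0.00156), and Chat, the acetylcholine-making enzyme of striatal interneurons as well, rose by 1.53 (adjusted p = 0.0175).

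Receptors of the members' own peptides, and of reelin, fell where they changed. Of 15 of these genes tested, 0 were called higher and 6 lower in NT mice, and 0 higher and 5 lower over both pressures. Over all genes, 14.4% were called higher and 11.5% lower in NT mice, and 13.8% and 11.4% over both pressures. Cckbr, the main cholecystokinin receptor of the cortex, fell by 0.45 on the log2 scale over both pressures (SE 0.06, edgeR adjusted p = 2.23e-05), from 84.7 ± 4.04 CPM in NT + Sham to 58.8 ± 5.14 in NT + Stroke and from 79.3 ± 9.88 in HT + Sham to 61.5 ± 8.57 in HT + Stroke. The neuropeptide Y receptor genes Npy5r and Npy1r fell by 0.48 and 0.26 (adjusted p = 0.000821 and 0.00135), and Dab1, which relays the reelin signal inside the cell, fell by 0.25 (adjusted p = 0.000218). Among 10 genes that process and store peptides, 4 were called lower over both pressures and 0 higher. Pcsk1, a protease that cuts peptide precursors, fell by 0.49 (adjusted p = 5.67e-05), Pam, which amidates peptides, by 0.27 (adjusted p = 0.000408), Chgb by 0.17 (adjusted p = 0.00565) and Pcsk2 by 0.21 (adjusted p = 0.0347). Of 14 genes of GABA synthesis, uptake and chloride balance, 2 were higher over both pressures (Slc32a1, and Slc38a3, a glutamine carrier, by 0.28, adjusted p = 0.0378) and 2 lower (among them Slc12a5, the chloride exporter KCC2, by 0.14, adjusted p = 0.0323). Over both pressures the counts of these 14 genes were near the shares over all genes. In NT mice, 5 of the 14 were called higher and 2 lower, against 14.4% and 11.5% of all genes. Of the 10 peptide-processing genes, 5 were called lower and 0 higher in NT mice.

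These counts stood beside lower pan-neuronal and cortical excitatory genes in NT mice. In NT + Stroke 13 of 20 pan-neuronal genes were called lower and 0 higher, and 14 of 18 cortical excitatory genes were called lower and 0 higher, with a median log2 fold change of -0.38. Of all genes, 11.5% were called lower there. Over both pressures 11 of 13 striatal genes and 7 of 8 genes of mature oligodendrocytes were called higher, against 13.8% of all genes. In HT mice 1 cortical excitatory gene and 5 of the 8 oligodendrocyte genes were called higher, against 0.645% of all genes called in either direction.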

How the data were processed

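Poly(A) mRNA libraries from 4 groups were sequenced on an Illumina HiSeq instrument. Raw counts per Ensembl gene were deposited by the authors, and the submitters' processing notes name featureCounts 1.5.0-p3 and DESeq2 1.20.0. The aligner and genome build are not given in the sources used here, and 97.65% of gene positions matched GENCODE vM21 (GRCm38). The authors also deposited FPKM, their counts per kilobase of gene and per unit of sequencing depth. Columns of the authors' normalised counts (48), group means (8), log2 fold changes and p-values were not used. The 4 tables were joined by gene ID into 33981 genes, and the 48 columns repeated between them held identical values.

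Counts were tested with the quasi-likelihood test of edgeR 4.0.16 (R 4.3.3) after filterByExpr (minimum count 10, minimum total 15) and TMM scaling, with Benjamini-Hochberg adjustment over the genes tested and a threshold of 0.05. Two-group comparisons were fitted on their own 12 libraries, and the interaction and the additive stroke effect on all 24. The SE given beside an edgeR log2 fold change was derived from the test. It is the absolute log2 fold change divided by the square root of the F statistic. Log2 CPM used a prior count of 2. Alternatives were DESeq2 1.42.0, limma 3.58.1 on log2(FPKM + 1) and log2(FPKM + 0.1), other scalings and filters, region scores as covariates, a replicate block and leaving out each library. The fits were also run on simulated counts in which each gene varied independently between libraries. That setting lacks the regional variation seen here, so it cannot show how the fits behave with it. A gene list's score was the mean log2 CPM of its genes, and permutation tests were two-sided. The members and lists were chosen with earlier results of these data known. From each list, up to 4 genes with the smallest p-value in stroke over both pressures were named, and for each member the 3 genes most like it. The values of 2 genes that this rule names are not reported here. Total counts per library ran from 15922919 to 24865998. GEO lists 1 sample for each group, and the libraries were assigned to groups by their column names.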

Additional observations from a re-analysis of the deposited data

Results flagged for a closer look

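In 3 of the 40 groups tested (10 genes in 4 groups of 6 libraries), 1 library stood away from the rest by Dixon's gap test at the 95% level. Chance alone gives about 1 group in 20, so 3 of 40 is little more than chance gives. Vip was lowest in library 1 of NT + Sham, at 35.8 CPM, where the next library was at 40.2 and the highest at 41.7. Vip was highest in library 4 of HT + Sham, at 47.6 CPM, where the next was at 36.2 and the lowest at 33.7. Without that library the log2 fold change of Vip was -0.22 in HT mice (edgeR adjusted p = 0.254) and -0.29 over both pressures (edgeR adjusted p = 0.000212). Npy was highest in library 4 of NT + Stroke, at 120.1 CPM, where the next was at 101 and the lowest at 90.1. Without it the log2 fold change of Npy in NT mice was -0.24 (edgeR adjusted p = 0.0226).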

How the results depend on the processing

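Of 351 values under 12 alternative settings for 32 fold changes of the members, 302 kept their direction and their side of the threshold, 23 no longer passed, 7 newly passed and 19 changed sign. The count of members called was affected most by the regional covariates. With the olfactory bulb and striatal scores as covariates it went from 6 to 0 for stroke in NT mice and from 4 to 1 over both pressures (over all genes, from 4365 to 522 and from 4436 to 941), and to 1 over both pressures when the 3 libraries whose phagocyte genes stood apart (library 6 of HT + Sham, libraries 1 and 6 of HT + Stroke) were also left out, an exclusion chosen after seeing the data. Scaling to pan-neuronal genes gave 2 over both pressures, and a fit of all 4 groups gave 1 in HT mice (0 when HT mice were fitted alone). Leaving out 1 library gave 5 to 8 calls in NT mice, 3 to 4 over both pressures and 0 in the other comparisons. Over all genes, calls in NT mice were fewest without library 1 of NT + Stroke (2182 higher, 1348 lower) and most without its library 3 (2399 higher, 1811 lower). Over both pressures they were fewest without library 4 of NT + Sham (2295 and 1697) and most without library 6 of HT + Sham (2632 and 2278). In HT mice they ran from 9 to 532.

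Signs changed for these log2 fold changes. With the covariates, stroke in NT mice gave 0.22 for Pvalb, -0.27 for Gad1, -0.10 for Gad2, 0.038 for Npy, -0.24 for Reln and -0.089 for Calb2, stroke in HT mice gave 0.076 for Calb2, angiotensin II in sham mice gave -0.061 for Gad1 and the interaction gave -0.0045 for Sst. With the covariates and without the 3 libraries, stroke in HT mice gave 0.15 for Calb2, angiotensin II in sham mice gave -0.093 for Gad1 and -0.015 for Calb2, and the interaction gave -0.090 for Sst, 0.0079 for Gad1 and 0.039 for Reln. Scaled to pan-neuronal genes, Npy in NT mice was at 0.084, Vip in the interaction at -0.096 and Lamp5 over both pressures at 0.0026, and with library size alone Vip in the interaction was at -0.015. The cause of these changes was not tested.

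The deviations of same-numbered libraries from their group means had a mean r of 0.0371 (from -0.48 to 0.361, with 17 of 36 pairs over 0.1), against -0.00747 for other pairs (48 of 180 over 0.1). No label pairs the libraries, so the numbers were not taken as pairs. Paired libraries need not all be over 0.1, so these values cannot decide whether the numbers are pairs. A replicate block gave 8 calls in NT mice, with Pvalb, Gad1 and Reln added and Calb2 not called, and 3 over both pressures, and 0 elsewhere. Over all genes, the block gave 2598 higher and 2038 lower of 16835 in NT mice. It gave 2388 higher and 1945 lower of 17608 over both pressures, and 46 of 16741 in HT mice.

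With 6 libraries a group, SEs of the members ran from 0.06 to 0.34 in NT mice and from 0.08 to 0.54 in HT mice, and the widest were those of Calb2. Whether each library came from a separate mouse is not stated.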
